A study of Homo sapiens with 18 samples.

Results

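The replication-dependent histone genes of human chromosome 6 lie in 3 windows of the genome build hg19, chr6:26010000-26290000, chr6:27090000-27120000 and chr6:27770000-27870000, which together span 410 kb. Open chromatin in these windows was read from ATAC-seq, an assay in which a transposase cuts accessible DNA, in the established human neuroblastoma lines BE2C and Kelly. A called peak was counted as a member when its summit lay in a window. Over the 18 deposited peak lists, 701 of 781454 peaks were members. Peaks that overlapped between libraries were merged, which gave 49 histone regions of 150322 regions on chromosomes 1 to 22 and X, with 30, 4 and 15 in the first, the second and the third window.

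Each line was transduced with lentivirus carrying the empty vector pLKO or 1 of 2 short hairpin RNAs against AHR, called shAhR-1 and shAhR-2, and each of these 6 groups had 3 libraries. All groups, the controls included, therefore carried a lentiviral vector, and both lines were grown in RPMI medium with serum. The series title names MYCN amplified neuroblastoma. Each library came from one of 3 collected portions of cells, and nothing states that these were separate cultures or transductions. The p-values below therefore rest on the scatter among the libraries at hand alone, and that scatter may be technical. Peaks do not report the level of the AHR protein or transcript, so the knockdown itself was not checked, and the lines' marker genes were not analysed here.

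Replication-dependent histone genes encode the core histones H2A, H2B, H3 and H4, which form the nucleosome, and the linker histone H1, which binds the DNA between nucleosomes. Their transcription rises in S phase, when newly made DNA has to be packaged, and their messenger RNAs end in a stem-loop instead of a poly(A) tail. The genes are short, lack introns and stand close together, and many H2A and H2B genes face away from each other across a shared promoter. AHR, the aryl hydrocarbon receptor, is a ligand-activated transcription factor that binds DNA together with ARNT at a short core motif.

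RefSeq's table for GRCh38.p14 lists 55 histone genes of this cluster on chromosome 6, of which 6 encode H1, 12 H2A, 15 H2B, 10 H3 and 12 H4, and 50 had a promoter entry. Because the peaks are in hg19 and the gene table is in another build, no peak is assigned to a gene here, and regions are named by their hg19 position. The promoters below, with GRCh38.p14 positions, are 1 for each histone family. In each family the promoter with the most kinds of match among TATA box, CCAAT box and octamer was taken. Among equals it was the first along the chromosome, and testis-specific genes were left out. The printed promoters were thus chosen for their matches and need not be typical of their family. They are the 250 bases before the transcription start, 5′ to 3′ on the gene's strand, and capitals mark every match, on either strand, to the TATA box TATAAA, the CCAAT box CCAAT, the octamer ATTTGCAT and the AHR core GCGTG.
H1-1 promoter, chr6:26017788-26018037, minus strand: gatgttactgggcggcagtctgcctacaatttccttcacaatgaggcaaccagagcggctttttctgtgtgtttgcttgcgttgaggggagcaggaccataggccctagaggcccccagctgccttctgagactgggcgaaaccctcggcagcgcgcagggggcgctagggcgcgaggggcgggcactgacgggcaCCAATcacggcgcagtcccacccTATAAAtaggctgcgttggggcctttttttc
H2AC4 promoter, chr6:26033619-26033868, minus strand: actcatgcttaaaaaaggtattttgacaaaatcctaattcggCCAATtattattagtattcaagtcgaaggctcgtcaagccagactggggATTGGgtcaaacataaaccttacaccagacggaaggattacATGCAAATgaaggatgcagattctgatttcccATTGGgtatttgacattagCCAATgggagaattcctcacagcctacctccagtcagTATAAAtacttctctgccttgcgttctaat
H2BC3 promoter, chr6:26043714-26043963, minus strand: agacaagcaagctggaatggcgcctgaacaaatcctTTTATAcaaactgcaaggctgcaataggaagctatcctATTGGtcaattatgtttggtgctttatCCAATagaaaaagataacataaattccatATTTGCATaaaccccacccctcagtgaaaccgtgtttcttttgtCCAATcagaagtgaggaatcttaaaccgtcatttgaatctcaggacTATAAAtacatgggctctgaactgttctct
H3C1 promoter, chr6:26020201-26020450, plus strand: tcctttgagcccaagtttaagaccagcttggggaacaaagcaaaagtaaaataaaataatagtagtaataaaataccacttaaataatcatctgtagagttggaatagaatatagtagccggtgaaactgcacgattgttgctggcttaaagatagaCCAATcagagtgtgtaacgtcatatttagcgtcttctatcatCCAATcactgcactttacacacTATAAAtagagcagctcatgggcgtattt
H4C13 promoter, chr6:27873535-27873784, minus strand: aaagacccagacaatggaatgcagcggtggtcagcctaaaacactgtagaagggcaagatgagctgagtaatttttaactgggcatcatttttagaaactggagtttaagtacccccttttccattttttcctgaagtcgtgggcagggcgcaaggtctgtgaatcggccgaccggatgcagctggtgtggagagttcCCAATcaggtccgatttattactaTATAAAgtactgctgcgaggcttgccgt

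The octamer, the binding site of the POU factor OCT1, appears in capitals in the printed H2AC4 and H2BC3 promoters and in none of the other printed ones. Over the 50 promoters with an entry, 9 of 11 H2A and 12 of 15 H2B promoters held it, against 1 of 8 for H3 and 0 of 6 and 0 of 10 for H1 and H4. In all, 44% of the histone promoters held the octamer, against 1.66% of 27305 promoters of the same length. A TATAAA stood in 66% of the histone promoters and in 11.1% of all promoters. CCAAT boxes were found in 86% of the histone promoters and in 33.0% of all, and only 3 of the 10 H4 promoters had one while every H1, H2A, H2B and H3 promoter with an entry did. The AHR core was in 5 of the 50, which is 10%, against 31.9% of all promoters, and in none of the 5 printed. H2A and H2B genes that face away from each other share sequence between their starts, so these promoters are not independent of one another, and a match is a description of letters, not a bound site.

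The lists differed much in length, from 9204 peaks in Kelly shAhR-1 replicate 1, which stood apart, to 81637 in BE2C shAhR-2 replicate 3. Both lines had far longer lists with shAhR-2: the geometric mean length was 2.31 times that of pLKO in Kelly and 2.05 times in BE2C. Ratios between groups are ratios of geometric means here and below. The read depth of the libraries is unknown, but the genome-wide background that can be solved from the peak statistics ran from 0.601 to 4.42 reads per position, and it was highest in shAhR-2. A longer list can therefore come from more reads as well as from more open sites, and these cannot be told apart here. Some histone genes are near copies of each other, and how reads that fit several places were treated is not given in the sources used here.

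The histone windows held a core of regions that nearly every library shared. Of the 49 regions, 10 had a peak in all 18 libraries and 13 had one in 17, and for 12 of those 13 the library without a peak was Kelly shAhR-1 replicate 1. The 23 regions found in at least 17 libraries were 46.9% of the histone regions, against 12221 of 150322 regions genome-wide, or 8.13%. At the other end, 8 histone regions were found in 1 library.

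The 10 regions found in every library were spread over all 3 windows, with 5 in the first, 2 in the second and 3 in the third. They were between 1164 and 3054 bases long after merging. Fold is the authors' enrichment of a peak's summit over its local background, and the strongest peak of a region is given. In the first window, chr6:26020388-26022562 had a median fold of 5.86 over the 18 libraries (range 3.95 to 7.99). The median of chr6:26054650-26057447 was 6.61 (4.10 to 8.52), that of chr6:26122865-26124846 was 6.34 (4.81 to 8.50), that of chr6:26156074-26159127 was 5.64 (4.40 to 6.82) and that of chr6:26204127-26206280 was 6.37 (4.65 to 11.6). The 5 medians of this window thus lay within 1 fold unit of each other, well inside the range that each region showed across libraries. The short second window gave 6.78 (5.88 to 10.5) at chr6:27099337-27102020 and 7.41 (4.33 to 9.71) at chr6:27113385-27115419. In the third window, chr6:27774530-27776486 had 6.50 (4.12 to 9.18), chr6:27804622-27807248 had 7.39 (5.19 to 10.1) and chr6:27860575-27861738 had 4.70 (3.33 to 6.87). The last was the lowest of the 10, and its range still overlapped those of the other 9.

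Reads that overlap at the summit, solved from each peak's fold and p-value, show the depth behind these folds. At chr6:27804622-27807248 the 9 Kelly libraries had between 9 and 116 overlapping reads with a median of 41, and the 9 BE2C libraries between 33 and 132 with a median of 62. Its fold was much the same in both lines, with medians of 7.24 in Kelly and 7.53 in BE2C. At chr6:26020388-26022562 the Kelly libraries had between 14 and 94 reads and the BE2C libraries between 26 and 109. Thus the number of reads at a shared site differed widely between libraries, while the fold kept within a narrower range. The highest median fold of any histone region, 9.74 (6.97 to 12.3), belonged to chr6:26103529-26104955, which had a peak in 17 libraries and ranked at a median percentile of 85.6 within each library's list.

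**Figure D1:**
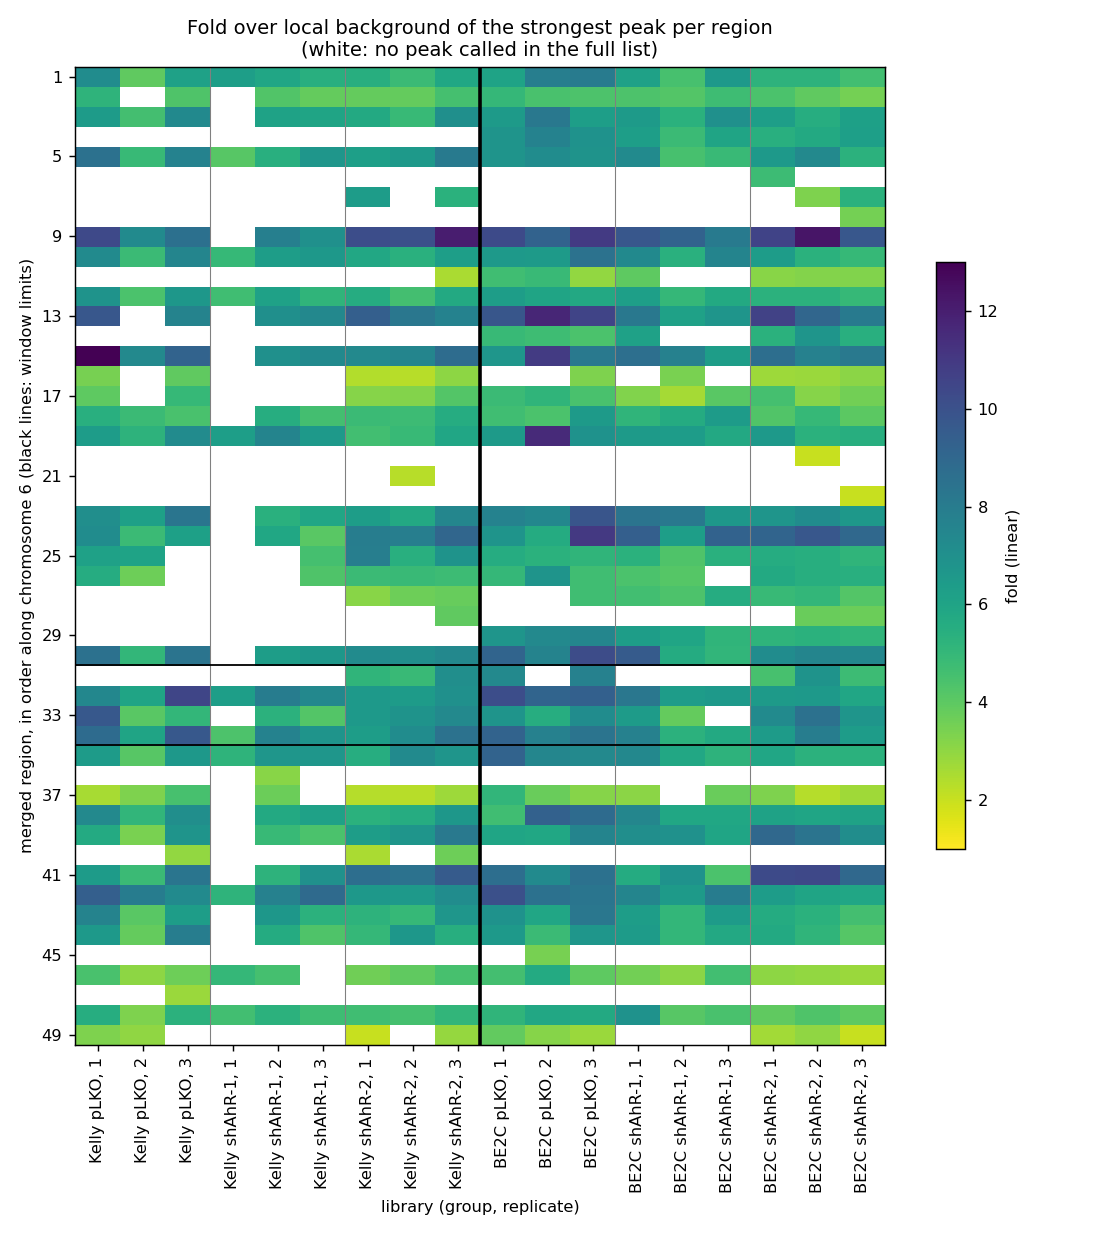
Fold over local background of the strongest peak in each of the 49 merged histone regions (rows, numbered in order along chromosome 6, with black lines between the 3 windows) in each of the 18 libraries (columns, Kelly left and BE2C right of the heavy line). White means that no peak was called. Most rows are filled in all or nearly all columns, the column of Kelly shAhR-1 replicate 1 is mostly white, and rows 4 and 29 are filled in all 9 BE2C libraries and in no Kelly library.

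Several regions were called as separate peaks side by side in the same library. At chr6:26031937-26034140 this was so in 14 libraries, with a median of 1418 bases between the outermost summits. The wider region chr6:27832500-27835566 was split in 13 libraries, with summits a median of 2296 bases apart, and chr6:27839468-27841724 in 10. These regions, chr6:27839468-27841724 included, were singled out after their values were seen. Joining neighbouring summits lowers the peak number and adds the sequence between them to the width and the covered length. At chr6:26271200-26274175, for example, BE2C shAhR-2 replicate 3 had 1 peak of 2976 bases and replicate 1 had 2, the stronger of 1393 bases. How much joining contributes to the numbers, widths and covered lengths below was not tested.

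Within each list, the windows were compared with the 1450 kb between them and with the rest of chromosome 6. Peaks in the windows were denser than in the stretches between in 18 of 18 libraries, by 2.85 times on average (range 1.69 to 7.78; permutation test, sign flips over libraries, p = 2e-05, the smallest that the resamples can give, adjusted p = 4e-05). Against the rest of chromosome 6 the windows were denser in 18 of 18 libraries, by 7.57 times (3.91 to 14.6; adjusted p = 4e-05, permutation test). Since all libraries read the same sites, these tests speak of the libraries and not of other loci.

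Histone peaks were also wide. The median width of a histone peak was 1.50 times that of the other peaks of the same list (range 0.816 to 2.16), and it was greater in 16 of 18 libraries (permutation test, adjusted p = 0.000107). The exceptions were Kelly pLKO replicate 2, with a median of 408 bases against 448, and Kelly shAhR-1 replicate 1, with 262 against 321. The group with the highest mean was BE2C shAhR-2, whose medians were 1114, 1084 and 1224 bases against 548.5, 570.0 and 575 in the rest of the list.

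Their fold lay on different sides of the rest of the list in different groups. The median fold of histone peaks was 1.01 times that of the rest of the list (0.837 to 1.17) and was higher in 10 of 18 libraries (permutation test, adjusted p = 0.583). In all 6 shAhR-2 libraries it was above the rest, by 1.06 to 1.15 times in Kelly and 1.05 to 1.17 times in BE2C. In the 6 Kelly pLKO and shAhR-1 libraries it was below, at 0.837 to 0.986 and 0.915 to 0.944 times. The 3 BE2C pLKO libraries were at 1.00 to 1.05 times and the BE2C shAhR-1 libraries at 0.918 to 1.03 times, with 1 of 3 above. Among peaks with −log10 q of at least 5 the histone peaks had the lower fold, by a log2 difference of -0.15 (permutation test, adjusted p = 2.67e-05), and in lists cut to equal length the difference was -0.25 (adjusted p = 0.000267, permutation test). The local background at histone peaks ran from 1.78 to 5.14 times the genome-wide background of the library, against 1.27 to 1.79 times at the other peaks. In the 6 shAhR-2 libraries it was 3.22 to 5.14 times at histone peaks and 1.27 to 1.41 times elsewhere. Fold is the summit over this local background, and the part of the background in the fold was not tested.

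**Figure D2:**
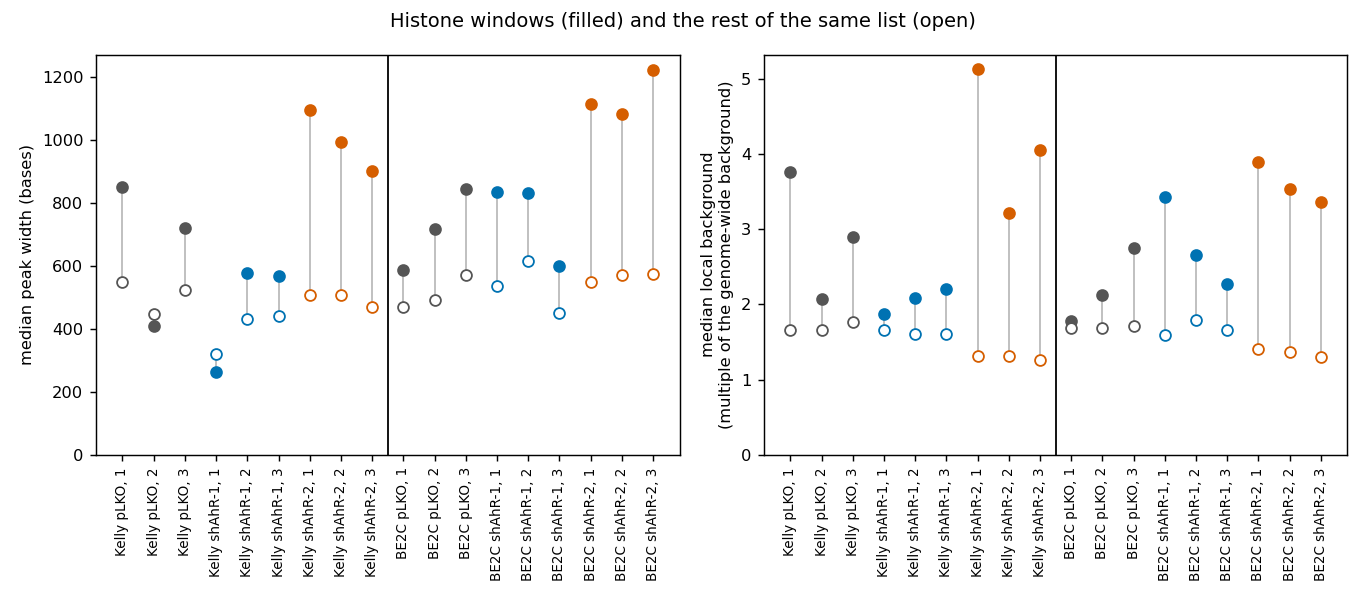
Median peak width in bases (left) and median local background as a multiple of the library's genome-wide background (right) for each library, with histone peaks as filled points and the other peaks of the same list as open points; grey is pLKO, blue shAhR-1 and orange shAhR-2, with Kelly left of the line. The filled point is above the open one for width in 16 of 18 libraries and for local background in each of the 18, and the gap is wide in the shAhR-2 libraries.

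The next question was whether the histone windows changed with either hairpin. The number of histone peaks did not follow the longer shAhR-2 lists, while the length they covered grew. Kelly pLKO libraries had 39, 33 and 35 histone peaks and Kelly shAhR-2 libraries 39, 37 and 46. BE2C pLKO libraries had 49, 44 and 45, and each of the 3 BE2C shAhR-2 libraries had 44. The values overlapped in both lines. The Kelly means were 35.7 ± 3.06 with pLKO and 40.7 ± 4.73 with shAhR-2, and the BE2C means 46.0 ± 2.65 and 44.0 ± 0 (SD of 3 libraries).

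Over both lines the number with shAhR-2 was 1.04 times that with pLKO, a log2 difference of 0.062 (exact permutation test within lines, p = 0.46, adjusted p = 0.526, Benjamini-Hochberg over 24 tests here and below). In the stretches between the windows the number of peaks was 2.04 times higher with shAhR-2 in Kelly and 1.53 times in BE2C, against 1.14 and 0.958 times in the windows. As a share of the list, histone peaks made up 11.2, 16.5 and 11.7 per 10000 in Kelly pLKO and 6.02, 6.12 and 6.997 in Kelly shAhR-2. The shares in BE2C were 14.3, 12.1 and 10.1 per 10000 with pLKO and 5.80, 5.67 and 5.39 with shAhR-2. No value of a shAhR-2 library reached that of any pLKO library of its line, and the share was 0.480 times as large (log2 difference -1.06, exact permutation test, p = 0.005, the smallest that 400 arrangements can give, adjusted p = 0.0133).

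The covered length rose with shAhR-2. Histone peaks covered 37.1, 17.1 and 27.8 kb in Kelly pLKO and 46.4, 41.1 and 44.7 kb in Kelly shAhR-2. In BE2C they covered 32.3, 33.9 and 44.7 kb with pLKO and 54.4, 54.97 and 58.6 kb with shAhR-2. All 6 shAhR-2 libraries were above every pLKO library of their line, and the covered length was 1.61 times higher (log2 difference 0.69, exact permutation test, adjusted p = 0.0133). The length covered by the other peaks of each list was not measured, so this rise is not shown to be particular to the windows.

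Histone peaks remained wider with shAhR-2 when each list was cut to the same number of its strongest peaks, 9204 in Kelly and 25660 in BE2C. In these lists the median width of histone peaks was 1364, 587 and 1394 bases in Kelly pLKO and 1561, 1470 and 1495 in Kelly shAhR-2. In BE2C it was 649, 739 and 1026 bases with pLKO and 1207, 1316 and 1594 with shAhR-2. Again every shAhR-2 library was above every pLKO library of its line, and the width was 1.58 times higher (log2 difference 0.66, exact permutation test, adjusted p = 0.0133). In Kelly these medians rest on only 4 to 8 peaks per library. The length of 9204 was set by Kelly shAhR-1 replicate 1, and these widths were not measured without that library. The call was lost without Kelly shAhR-2 replicate 1 (adjusted p = 0.084), or without replicate 2 or 3 of Kelly shAhR-2 or replicate 3 of BE2C shAhR-2 (adjusted p = 0.072 in each, exact permutation). Within the first window alone the log2 difference was 0.49 (exact permutation, adjusted p = 0.242). The width of the other peaks in these cut lists was not measured. In the full lists, the other peaks' median width averaged 506 bases with pLKO and 494 with shAhR-2 in Kelly. In BE2C it averaged 510 and 564.5 bases. For histone peaks of the full lists the averages were 660 and 997 bases in Kelly and 717 and 1141 in BE2C.

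**Figure D3:**
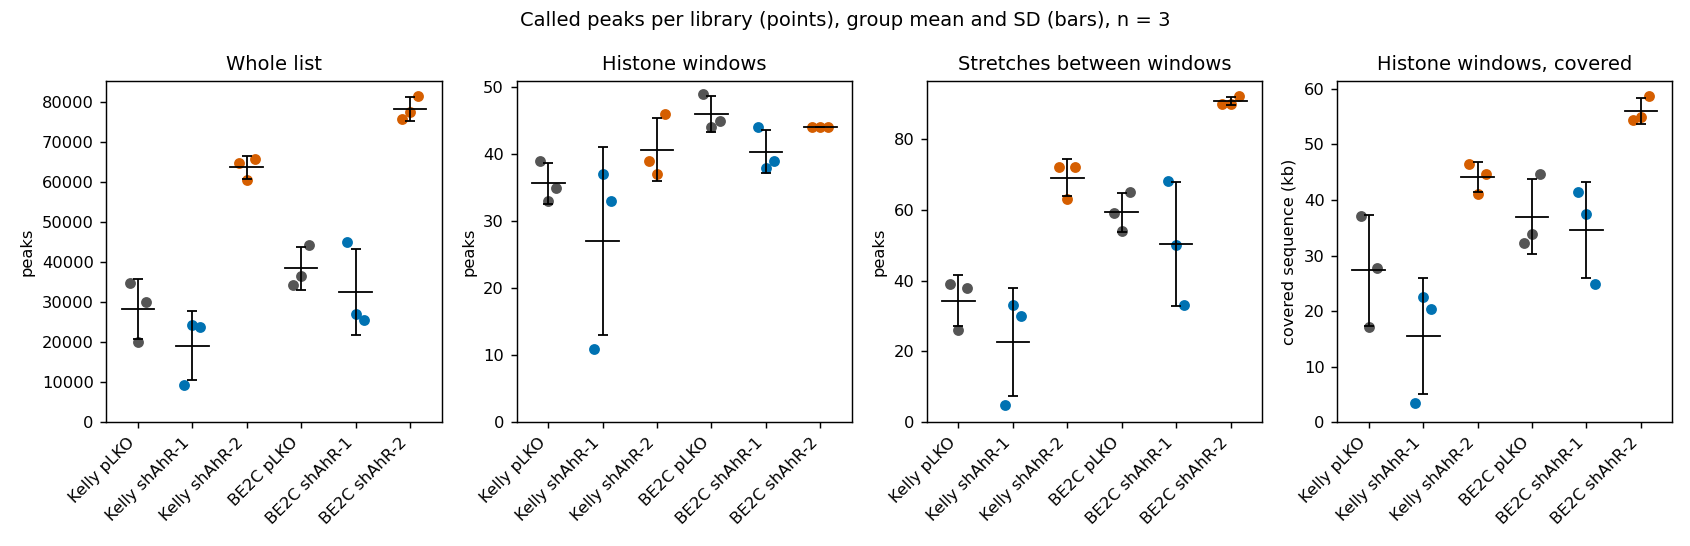
Peaks in the whole list, peaks in the histone windows, peaks in the stretches between the windows and kb covered by histone peaks, for each of the 18 libraries (points) with the mean and SD of the 3 libraries of a group (bars). The shAhR-2 groups stand above the other groups of their line in list length, stretches and covered kb, while the histone peak numbers of pLKO and shAhR-2 overlap in both lines.

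At equal list length the histone peaks were no more numerous and no higher in fold with shAhR-2. Kelly pLKO had 7, 8 and 4 and Kelly shAhR-2 had 6, 6 and 8, and BE2C pLKO had 43, 39 and 31 and BE2C shAhR-2 had 30, 31 and 27. The ratio was 0.924 (log2 difference -0.11, exact permutation test, adjusted p = 0.605), and with lists ordered by fold in place of the p-value it was a log2 difference of -1.06 (exact permutation, adjusted p = 0.048). The median histone fold, taken relative to the median of its list, was 0.899 times as high with shAhR-2 (log2 difference -0.15, exact permutation test, adjusted p = 0.111). Without Kelly pLKO replicate 1 that difference was -0.21 (exact permutation, adjusted p = 0.0218). With lists ordered by fold its sign turned, to 0.074.

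The other hairpin, shAhR-1, was measured against the same pLKO libraries. Kelly shAhR-1 libraries had 11, 37 and 33 histone peaks covering 3.53, 22.6 and 20.3 kb, and BE2C shAhR-1 libraries had 44, 38 and 39 covering 41.5, 37.5 and 24.96 kb. Neither quantity passed the test against pLKO: the number was 0.765 times as large (log2 difference -0.39, exact permutation test, adjusted p = 0.12) and the covered length 0.646 times (-0.63, adjusted p = 0.304). Without Kelly shAhR-1 replicate 2 the number passed, with a log2 difference of -0.55 (exact permutation, adjusted p = 0.04). The share of the list was 1.06 times that of pLKO (exact permutation test, adjusted p = 0.6), the matched width 0.751 times (adjusted p = 0.42) and the relative fold 1.08 times (adjusted p = 0.347). The matched number was 1.29 times as large (exact permutation test, adjusted p = 0.208) and turned to a log2 difference of -0.022 without Kelly shAhR-1 replicate 1.

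The hairpins differed from each other at the histone windows. With shAhR-2 the covered length was 2.49 times that with shAhR-1 (log2 difference 1.32), the matched width 2.11 times (1.08) and the share of the list 0.454 times (-1.14), each without overlap between the groups of a line (exact permutation test, adjusted p = 0.0133 for each). The matched number was 0.717 times as large (-0.48, exact permutation test, adjusted p = 0.0133) and the relative fold 0.835 times (-0.26, adjusted p = 0.024). The full number was 1.36 times as large without passing the test (exact permutation, adjusted p = 0.0873), but passed without Kelly shAhR-1 replicate 2 (log2 difference 0.61, adjusted p = 0.04) or BE2C shAhR-1 replicate 1 (0.48, adjusted p = 0.0267). For the relative fold, the call was lost within the first window (-0.092, exact permutation, adjusted p = 0.508) and the sign turned with lists ordered by fold (0.043). None of 18 tests of whether a hairpin's effect differed between the lines passed (permutation of labels within lines, lowest adjusted p = 0.774, and 0 had an unadjusted p under 0.05). Because hairpin labels were exchanged within each line, an effect that both lines share widens the permuted spread. These tests therefore cannot decide whether the lines responded alike.

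Single regions were compared in the lists of equal length. A region was called by presence when all 3 libraries of one group and none of the other had a peak there, and by rank when it had a peak in all 6 libraries and the fold percentiles of the groups, each within its own list, did not overlap. Because these lists were merged anew, the limits of a region can differ slightly from those above.

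In BE2C, shAhR-2 against pLKO, 24 histone regions could be ranked, of which 13 ranked lower with shAhR-2 and 3 higher, where 50.3% of all ranked regions were called in either direction. Of all 17277 ranked regions, 6221 were lower and 2461 higher. Ranked by −log10 p in place of fold, 7 were lower, a count given without the share over all regions, so nothing is read from it. The largest fall was at chr6:27099338-27102020, which every library shared: its median percentile was 64.7 with pLKO (58.4 to 79.9) and 16.3 with shAhR-2 (14.9 to 18.5), and its folds were 9.12 to 10.2 and 5.88 to 6.53. At chr6:27804622-27807248 the median percentile was 59.0 with pLKO and 13.5 with shAhR-2. The overlapping reads did not fall at either site. They were 45 to 72 with pLKO and 122 to 134 with shAhR-2 at the first, and 44 to 73 and 108 to 132 at the second. Relative to each library's genome-wide background, the means were 33.1 ± 4.92 against 33.7 ± 3.17, and 33.5 ± 5.17 against 31.2 ± 1.83 (SD of 3 libraries). The part of the local background in these lower ranks was not tested. The 3 regions that ranked higher were chr6:26103529-26104892 (88.1 against 75.1), chr6:27791484-27792729 (52.1 against 34.7) and chr6:27798488-27799600 (79.5 against 48.9). At the last, folds were 8.67, 7.24 and 8.54 with pLKO and 10.3, 10.4 and 8.96 with shAhR-2, and the overlapping reads were 31, 26 and 38 with pLKO and 101, 105 and 103 with shAhR-2. Divided by each library's genome-wide background, which was higher with shAhR-2, they were 20.5, 17.4 and 20.5 against 29.7, 29.6 and 23.3, without overlap. The site was picked for its fold ranks in these same libraries, so its folds and reads are no separate support. The share of all regions with such a gap in reads was not counted. Within the full lists, an alternative chosen after seeing the data, 8 of 35 histone regions ranked higher with shAhR-2 and 3 lower, where 47.3% of all ranked regions were higher and 8.87% lower, so the direction of most rank calls differed between full lists and lists of equal length.

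**Figure D4:**
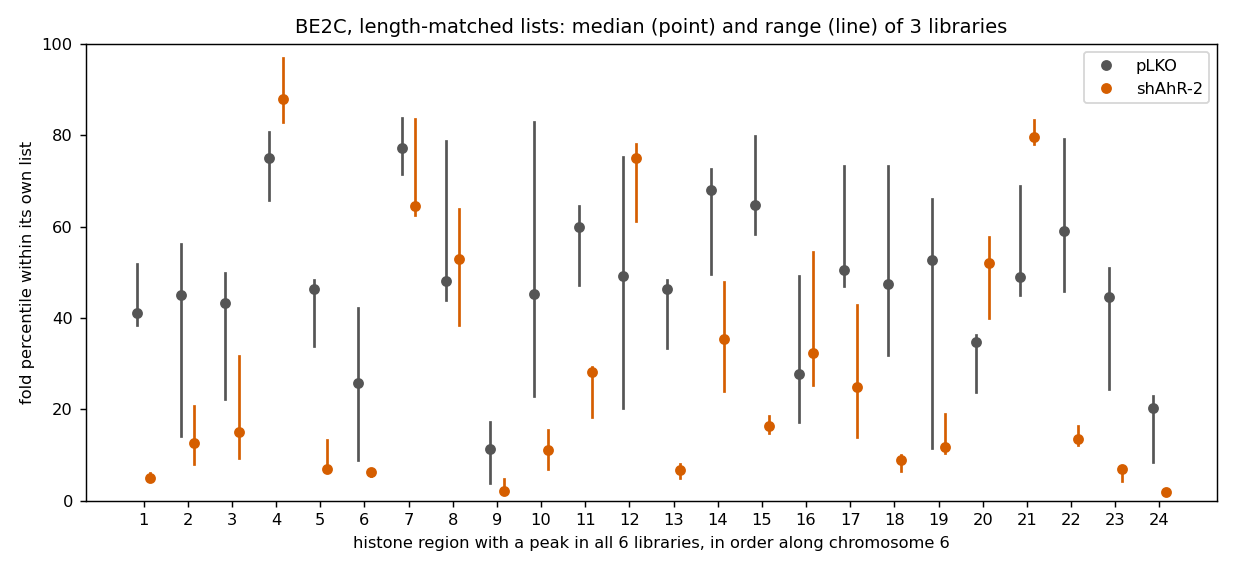
Fold percentile within the library's own list of equal length (0 to 100) for the 24 histone regions with a peak in all 3 pLKO (grey) and all 3 shAhR-2 (orange) BE2C libraries, numbered anew from 1 to 24 along chromosome 6, with points as medians and lines as ranges. Orange lies wholly below grey in 13 regions and wholly above it in 3, those numbered 4, 20 and 21.

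By presence, shAhR-2 lost 2 of 40 histone regions against pLKO in BE2C and gained 0, where 6.79% of all regions were called. The regions were chr6:26044819-26045932, with folds of 6.16 to 6.40 in pLKO, and chr6:27858150-27858930, with folds of 3.95 to 5.68. The full shAhR-2 lists did hold a peak at both sites, so what was lost is their place among the strongest 25660 peaks. Without BE2C pLKO replicate 3 the count was 5 of 40 (9.74% called). Without BE2C shAhR-1 replicate 3, whose list sets the matched length, it was 1 of 38 (7.26% called). The same 2 regions were the ones lost against shAhR-1, again 2 of 40 (5.11% called genome-wide), and by rank 12 of 23 were lower and 1 higher than with shAhR-1 (44.1% called), the 1 higher being chr6:27798488-27799600 again. Without BE2C shAhR-1 replicate 3 these counts were 1 lost (7.49% called) and 3 ranked higher (51.7% called). These comparisons share the shAhR-2 libraries.

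For shAhR-1 against pLKO in BE2C, 0 of 40 regions were called by presence (3.06% called genome-wide) and 1 of 27 by rank (13.7% called). That region, chr6:26171836-26173687, had a median percentile of 58.1 with shAhR-1 and 77.3 with pLKO. Its folds were 8.20, 6.11 and 6.73 with shAhR-1 and 9.78, 11.7 and 10.6 with pLKO. Leaving out 1 library moved the counts by rank to between 1 and 4 lower and between 0 and 4 higher. Both maxima came at the loss of a shAhR-1 library, replicate 3 (26.0% called) and replicate 1 (27.8% called).

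In Kelly the lists of equal length were short and held few histone regions. By presence, 1 of 19 was gained with shAhR-2 against pLKO (5.73% called genome-wide): chr6:27798539-27799531, with folds of 8.48 to 9.56. This is the site that also ranked higher in BE2C. In the full Kelly lists it had folds of 6.41, 4.83 and 8.31 with pLKO and 8.66, 8.48 and 9.56 with shAhR-2, on 33, 23 and 32 overlapping reads against 91, 58 and 73. In both lines the shAhR-2 folds lay above all pLKO folds, in the same libraries by which the site was picked. Divided by the genome-wide background, the Kelly reads were 18.6, 11.98 and 25.4 with pLKO and 31.2, 20.2 and 28.5 with shAhR-2, and these overlapped. The count of 1 was 2 without pLKO replicate 2 (8.28% called) or shAhR-2 replicate 1 (7.93% called). It was 0 of 32 (7.52% called) without Kelly shAhR-1 replicate 1, whose list sets the matched length, so the gain was not kept there.

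Also in Kelly, 1 of 19 was gained with shAhR-1 against pLKO (2.94% called), chr6:27774530-27776486. All 3 full Kelly pLKO lists held a peak there, so what was gained is its place among the strongest 9204 peaks. Folds in the full lists were 4.12 to 6.60 with pLKO and 5.18 to 6.69 with shAhR-1, and these overlapped. The count of 1 was 0 without shAhR-1 replicate 1 (5.38% called). It was 2 without pLKO replicate 2 (5.55% called) or shAhR-1 replicate 3 (5.51% called). With shAhR-2 against shAhR-1, 2 of 19 were lost (6.96% called), chr6:26122881-26124778 and chr6:26204410-26205375, both sites that the full lists of all 18 libraries held. Without shAhR-1 replicate 1 that count was 1 (11.7% called). By rank, 0 of 1 region was called for shAhR-2 against pLKO (34.3% called), 0 of 2 for shAhR-1 against pLKO (13.2% called) and 2 of 2, both lower, for shAhR-2 against shAhR-1 (46.2% called). Without Kelly shAhR-1 replicate 1, which sets the matched length, the last counts were 16 lower and 1 higher of 22 (53.9% of all ranked regions called), and for shAhR-1 against pLKO 7 of 21 were higher (26.5% called). For shAhR-2 against pLKO 11 of 22 were then lower and 2 higher (37.8% called). With at most 2 regions ranked in Kelly in the lists of 9204 peaks, nothing is read from those shares.

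BE2C and Kelly were then compared within each vector or hairpin. BE2C had more histone peaks: with pLKO 44 to 49 against 33 to 39 in Kelly, with shAhR-1 38 to 44 against 11 to 37, and with shAhR-2 44 in each against 37 to 46. The first of these comparisons, and the second, did not overlap, and the third did. The number was 1.33 times higher in BE2C (log2 difference 0.42, exact permutation test within conditions, p = 0.00175, adjusted p = 0.0133). Covered length was 1.73 times higher (0.79, exact permutation test, adjusted p = 0.0133). BE2C libraries had longer lists as well, and the histone share of the list was 0.918 times that in Kelly without passing the test (exact permutation, adjusted p = 0.321).

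The call on number was lost without BE2C shAhR-1 replicate 1 (exact permutation, adjusted p = 0.07), replicate 2 (adjusted p = 0.0534) or replicate 3 (adjusted p = 0.0606), and the call on covered length without replicate 1 (adjusted p = 0.0528). Without Kelly shAhR-1 replicate 1, the short list, both calls remained, with log2 differences of 0.23 and 0.50 (exact permutation, adjusted p = 0.0158 for each). Among the strongest 9204 peaks of every list, BE2C had 1 to 14 histone peaks and Kelly 4 to 12, a ratio of 0.626 that did not pass (exact permutation test, adjusted p = 0.0925). That log2 difference was -0.68, it passed without Kelly pLKO replicate 3 (-0.78, exact permutation, adjusted p = 0.0453), and it was -0.053 without Kelly shAhR-1 replicate 1. Matched width was 1.15 times that in Kelly (exact permutation test, adjusted p = 0.572) and relative fold 1.10 times (adjusted p = 0.247), the latter turning to a log2 difference of -0.052 without Kelly shAhR-1 replicate 1.

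Of the 49 regions, 29 had a peak in all 9 BE2C libraries and 10 in all 9 Kelly libraries, and 24 in at least 8 Kelly libraries. In the full lists, 2 histone regions had a peak in every BE2C and no Kelly library, where 0.518% of all regions did, and 0 had one in every Kelly and no BE2C library, where 0.0459% did. In the lists of equal length, 0 of 25 histone regions were called in BE2C only (0.848% of all) and 0 in Kelly only (0.417%). No histone region had a peak in every library of both lines in the lists of equal length, so 0 could be ranked, where 0.401% of ranked regions were called.

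The first of the 2 BE2C regions, chr6:26043613-26046002, had folds of 6.80, 7.66 and 6.89 with pLKO, 6.28, 4.81 and 5.97 with shAhR-1 and 5.45, 5.69 and 6.23 with shAhR-2. Between 18 and 63 reads overlapped at its summits, and in 8 of 9 BE2C libraries it was called as separate peaks, with summits a median of 1535 bases apart. Its neighbours on both sides were called in Kelly. The one before, chr6:26031937-26034140, 9.47 kb away, had a peak in 8 Kelly and 9 BE2C libraries, and the one after, chr6:26054650-26057447, 8.65 kb away, in all 18. With shAhR-2, Kelly had 97, 50 and 78 overlapping reads at the neighbour before and 62, 49 and 69 at the one after, but no call between them.

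The other BE2C region, chr6:26271200-26274175, near the end of the first window, had folds of 6.73, 7.36 and 7.48 with pLKO, 6.34, 5.95 and 5.16 with shAhR-1 and 5.19, 5.33 and 5.15 with shAhR-2. The overlapping reads were 25, 30 and 47, then 42, 36 and 19, then 74, 85 and 90. The nearest region before it, chr6:26257556-26257786, 13.4 kb away, had a peak in 1 Kelly and 2 BE2C libraries. The neighbour after it, chr6:26284843-26286862, 10.7 kb away, had a peak in 8 Kelly and 9 BE2C libraries, with 85, 59 and 69 reads in the Kelly shAhR-2 libraries. The BE2C lists with these calls held 25660 to 81637 peaks, and the Kelly lists without them 9204 to 65740. Whether depth or list length bears on these calls was not tested. A list holds only called peaks, so a missing call is not a measured level of 0, and copy number or sequence differences between the lines at these sites were not tested.

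**Figure D5:**
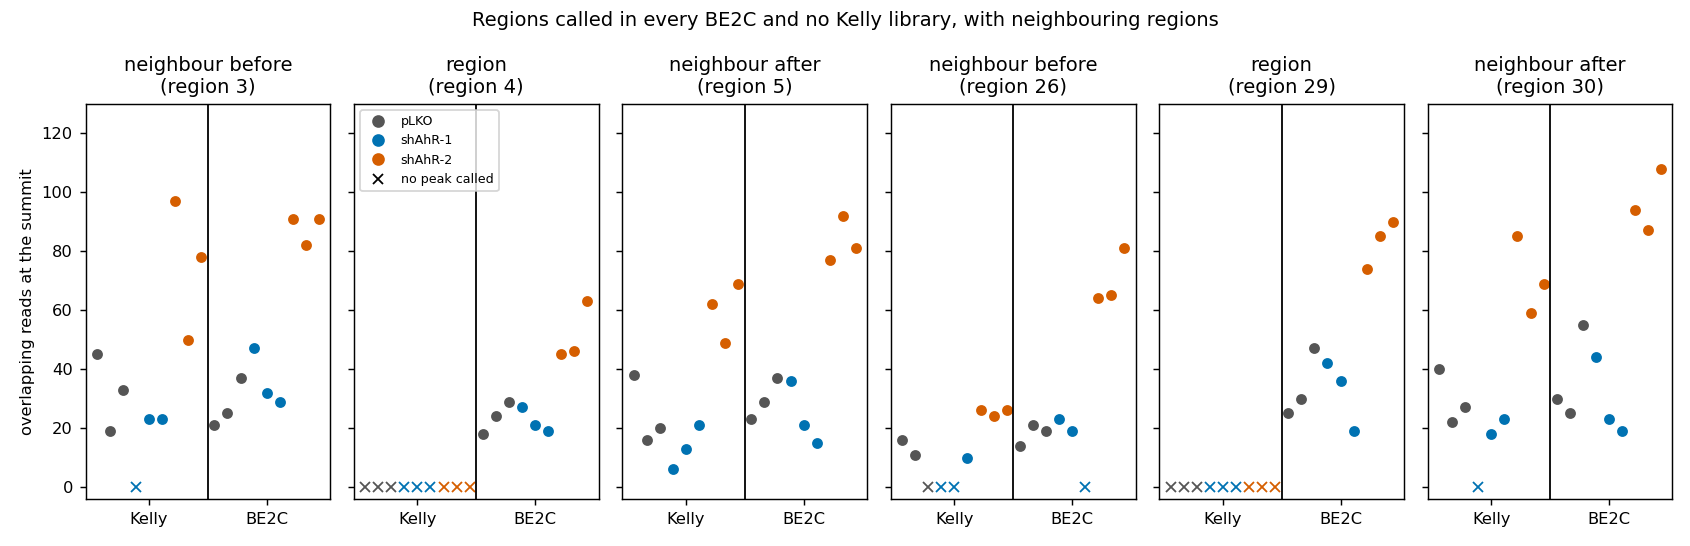
Overlapping reads at the summit (linear axis) for the 2 regions called in every BE2C and no Kelly library and, on either side, the nearest region with a peak in at least 14 libraries, with 1 point per library and a cross at the foot where no peak was called, which is not a measured 0. Panel numbers are rows of the map of folds; region 4 is chr6:26043613-26046002 and region 29 chr6:26271200-26274175. Neighbours 3, 5, 26 and 30 have points in both lines.

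Another region, chr6:26183656-26184376, had a peak in 7 BE2C and no Kelly libraries, with folds of 4.92, 4.74 and 4.40 with pLKO, 6.11 in shAhR-1 replicate 1 and 5.34, 6.74 and 5.41 with shAhR-2. It was missing from the 2 shortest BE2C lists, shAhR-1 replicates 2 and 3. The one region found in more than 1 Kelly library and in no BE2C library was chr6:27793841-27794372, with a peak in 3 Kelly libraries and folds of 2.50 to 3.64, among the lowest in the windows. Both were singled out after their values were seen.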

How the data were processed

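ATAC-seq peaks of 18 libraries (Kelly and BE2C, each with pLKO, shAhR-1 or shAhR-2, 3 libraries a group, grouped by their labels) were used as the authors deposited them, 1 list per library. Each list gives, as deposited by the authors, a score, a fold over local background (a linear ratio) and −log10 values of p and q, all below a q-value of 0.05. The submitters' processing notes name CASAVA 1.8.2, Trimmomatic 0.33, BWA 0.7.17, MACS2 2.1.0, deepTools 3.1.3 and the build hg19; their roles, settings and the read depth are not stated there. Members are peaks with the summit in 1 of the 3 windows; peaks outside chromosomes 1 to 22 and X were left out.

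Overlapping peaks (at least 1 base) were merged into regions. Lists of equal length kept the strongest peaks by −log10 p, to the shortest list of the line, or of all 18 for the comparison of lines. Tests were two-sided exact permutations of log2 values over libraries, with 400 arrangements within lines for hairpins and 8000 within conditions for lines (smallest p 0.00025), and Benjamini-Hochberg adjustment over 24 tests. Windows were compared with the rest of each list by 100000 sign flips, adjusted over 4 tests. Overlapping reads and local background were solved from fold, read as (summit + 1) over (background + 1), and the Poisson p; at least 96.3% of the peaks in a list could be solved. Named regions are those in all 18 libraries, those called by presence, and those whose ranks differed, plus the neighbours of those seen in 1 line and those said to be chosen after their values were seen. Members and gene lists were chosen with earlier results of these data known. Python 3.11.15, numpy 2.4.6, pandas 2.3.3 and scipy 1.17.1 were used, and the tests were tested on simulated data. Alternatives were stricter q, any overlap, the largest window, ordering by fold, full lists (for ranks, added after seeing the data), 50% cover, a replicate block and leaving out each library (for the hairpin tests, each library of the 2 groups compared). No 2 lists shared more than 0.25% identical peaks. Promoters are RefSeq's, GRCh38.p14.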

Additional observations from a re-analysis of the deposited data

How the results depend on the processing

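Values are log2 differences unless called counts. Counting any overlap with a window changed none of the 24 calls. With −log10 q of at least 5, the number for shAhR-2 against shAhR-1 became a call (0.94), and 3 values changed sign: the uncalled shares of shAhR-1 against pLKO (-0.027) and of BE2C against Kelly (0.11), and the fold against the rest of the list (-0.15). Measures at equal list length had no value there, because a library was left with 0 histone peaks. The first window alone gave 0.50 for the number of shAhR-2 against shAhR-1 (now a call) and 0.089 for the share of BE2C against Kelly (sign changed). There the matched width of shAhR-2 against pLKO (0.49) and its relative fold against shAhR-1 (-0.092) were no longer called. Ordering lists by fold gave -1.06 for the matched number of shAhR-2 against pLKO (now a call), and 0.074 and 0.043 for its relative fold against pLKO and shAhR-1 (signs changed). In lists of equal length the fold against the rest was -0.25. The cause was not tested.

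With the replicate number as a block (replicate block, exact permutation over 64 arrangements for hairpins, smallest p 0.03125), the log2 differences stayed as they were and the 10 called results all had an adjusted p of 0.075. These were the number (0.42) and covered length (0.79) of BE2C against Kelly. For shAhR-2 against pLKO they were covered length (0.69), share (-1.06) and matched width (0.66). Against shAhR-1 they were covered length (1.32), share (-1.14), matched number (-0.48), matched width (1.08) and relative fold (-0.26). With a smallest p of 0.03125 before adjustment, the hairpin results could hardly reach an adjusted p under 0.05. The block therefore cannot decide whether those calls hold. Same-numbered libraries of a line deviated together beyond r = 0.1 in 1 of 18 pairs (r from -0.235 to 0.116), and 5 of 18 libraries correlated best with their own number, so the numbers were not taken to pair the libraries.

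Leaving out 1 library at a time gave these ranges for the results whose call or sign changed. For hairpins only libraries of the 2 groups compared were left out. Kelly shAhR-1 replicate 1, which sets the matched length in Kelly, was thus kept in every fit of shAhR-2 against pLKO. The number ran from -0.55 to -0.11 for shAhR-1 against pLKO, from 0.17 to 0.61 for shAhR-2 against shAhR-1 and from 0.23 to 0.52 for BE2C against Kelly, whose covered length ran from 0.50 to 0.95. Matched number ran from -0.022 to 0.47 for shAhR-1 against pLKO and from -0.80 to -0.053 for BE2C against Kelly. Matched width of shAhR-2 against pLKO ran from 0.46 to 0.77. Relative fold ran from -0.21 to -0.11 for shAhR-2 against pLKO and from -0.052 to 0.17 for BE2C against Kelly.

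Counts of called regions were small and moved. Nothing is read from a count, here or in the next paragraph, that has no share over all regions beside it. By presence with 50% cover, Kelly had 3 higher for shAhR-2 against pLKO, 0 higher for shAhR-1 against pLKO, and 2 higher and 0 lower for shAhR-2 against shAhR-1; BE2C had 1 lower for shAhR-2 against pLKO and 1 lower against shAhR-1. In full lists Kelly had 2 of 43 higher for shAhR-2 against pLKO (12.1% of all regions), 0 higher for shAhR-1 against pLKO (0.0764%), and 4 higher (17.9%) and 0 lower (0.0565%) for shAhR-2 against shAhR-1. Full BE2C lists had 0 of 45 lower for shAhR-2 against pLKO (0.160%), 1 lower for shAhR-1 against pLKO (0.780%), and 2 higher (14.8%) and 0 lower (0.0187%) for shAhR-2 against shAhR-1, and 2 regions were higher in BE2C than Kelly. In full lists with −log10 q of at least 5, Kelly had 0 higher for shAhR-1 against pLKO and 6 higher and 0 lower for shAhR-2 against shAhR-1. Such BE2C lists had 0 lower for shAhR-2 against pLKO and 2 higher and 0 lower against shAhR-1, and 2 were higher in BE2C than Kelly. Ranked by −log10 p, BE2C had 7 lower for shAhR-2 against pLKO, 5 higher for shAhR-1 against pLKO and 0 higher for shAhR-2 against shAhR-1. Ranked within full lists (added after seeing the data), Kelly had 10 of 25 higher for shAhR-2 against pLKO (43.6% of all ranked regions), 1 of 10 higher for shAhR-1 against pLKO (2.99%), and 2 of 10 higher (42.5%) and 0 lower (5.91%) for shAhR-2 against shAhR-1. BE2C then had 8 higher and 3 lower of 35 for shAhR-2 against pLKO, 4 of 29 lower for shAhR-1 against pLKO (12.02%), and 6 of 30 higher (45.5%) and 0 lower (4.85%) for shAhR-2 against shAhR-1.

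The ranges of counts given here come from leaving out 1 library of the 2 groups compared. Counts by presence in Kelly then ran from 1 to 2 higher and 0 to 1 lower for shAhR-2 against pLKO, from 0 to 2 higher and 0 to 1 lower for shAhR-1 against pLKO, and from 0 to 1 higher and 1 to 3 lower for shAhR-2 against shAhR-1. By rank they ran from 0 to 1 lower, from 0 to 7 higher, and from 0 to 1 higher and 2 to 16 lower, in the same order. Kelly shAhR-1 replicate 1, which sets the matched length, lies outside the comparison of shAhR-2 with pLKO. Without it, that comparison had 0 higher and 0 lower by presence (7.52% called). By rank it had 2 higher and 11 lower (37.8% called). In BE2C, counts by presence ran from 0 to 1 higher and 2 to 5 lower for shAhR-2 against pLKO, from 0 to 1 higher and 0 to 1 lower for shAhR-1 against pLKO, and from 0 to 1 higher and 1 to 3 lower for shAhR-2 against shAhR-1. Without BE2C shAhR-1 replicate 3, shAhR-2 against pLKO had 1 lower (7.26% called). By rank, shAhR-1 against pLKO ran from 0 to 4 higher and 1 to 4 lower, and shAhR-2 against shAhR-1 from 1 to 3 higher. Read depth was not available, so what depth limits could not be measured; the short list of Kelly shAhR-1 replicate 1 limited every comparison at equal length in Kelly.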
